A study of Caenorhabditis elegans with 8 samples.

Results

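The mitochondrial genome of *C. elegans* was represented by 14 of the 45461 features in the expression table, chosen as every gene whose identifier begins with MTCE, the prefix of this chromosome. Of these 14 genes, 12 encoded proteins and 2 encoded ribosomal RNAs (rRNAs), and 0 rows were transfer RNA (tRNA) genes. The 22 mitochondrial tRNA genes that RefSeq lists for assembly WBcel235 were not analysed here. RNA had been sequenced from whole young adult hermaphrodites of 4 strains to ask which genes change when the hypoxia pathway is mutated, with 2 biological replicates per strain and 150 animals per library. The strains were the wild type (N2), *egl-9(lf)* (allele *sa307*), *egl-9(lf) hif-1(lf)* (*sa307* with *ia4*; below, the *hif-1* double mutant) and *cyp-36A1(lf); egl-9(lf)* (*gk824636* with *sa307*; below, the *cyp-36A1* double mutant), where *lf* marks loss of function. All 3 mutant strains thus carried the same *egl-9* allele, and no strain carried the *hif-1* or the *cyp-36A1* mutation alone. The animals were raised at 22.5°C and collected as very young adults with at most a single egg in the uterus, and each genotype was represented by 1 strain.

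In normal oxygen EGL-9, a prolyl hydroxylase, marks the transcription factor HIF-1 for destruction, so that HIF-1 is constantly active in *egl-9(lf)* mutants, and CYP-36A1 is a cytochrome P450 enzyme that the study placed downstream of HIF-1. The mitochondrial genome is a small circle whose protein-coding genes all specify subunits of the respiratory chain: the ND genes belong to complex I (NADH dehydrogenase), CYTB to complex III (the cytochrome bc1 complex), the COX genes to complex IV (cytochrome c oxidase) and ATP6 to complex V (ATP synthase). Each of these complexes also needs subunits encoded in the nucleus. In animals generally, mitochondrial DNA is transcribed into long precursors from which tRNAs, mRNAs and rRNAs are cut, so that the levels of neighboring mature RNAs depend on processing and decay as well as on transcription. The rRNAs form the mitochondrial ribosome. The libraries were made from RNA enriched for poly(A) tails, so the values below describe tailed mitochondrial RNA, and a difference in tailing cannot be told apart from a difference in amount.

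The 8 libraries held between 11925027 and 22269111 expected counts, and the mitochondrial genes took 1.24 to 1.74% of them. In the wild type the share was 1.47% in replicate 1 and 1.74% in replicate 2, and in *egl-9(lf)* it was 1.27% and 1.47%. In the *hif-1* double mutant it was 1.37% and 1.64%, and in the *cyp-36A1* double mutant it was 1.24% and 1.51%. Replicate 2 was above replicate 1 in all 4 strains, and the ranges overlapped for every pair of strains other than the wild type and *egl-9(lf)*, which lay 1.473% against 1.467% apart at their nearest. The replicate number was entered as a block in an alternative fit. The summed protein-coding counts were lower in *egl-9(lf)* than in the wild type by a log2 fold change of -0.31 (standard error, SE, 0.12), which did not pass the threshold (Benjamini-Hochberg adjusted p = 0.14 across all features, quasi-likelihood test of edgeR) and did with the replicate number as a block (adjusted p = 0.046). rRNA supplied only 0.423 to 1.14% of the mitochondrial counts.

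How the reads had been divided between neighboring genes bears on every value. The length that each deposited fragments-per-kilobase value (FPKM) implies can be recovered from the count, the library total and the FPKM, and for 9 of the 13 genes with counts it lay close to the RefSeq gene length, as for COX1 (1593 bases against 1578), CYTB (1115 against 1113) and COX2 (684 against 696). For 4 genes it was more than 1.2 times as long. ND6, a complex I subunit, had an implied length of 711 bases against 435, ND1 of 1551 against 876, ND4 of 2973 against 1230, and ND3 of 2905 against 336. The gene models used for counting thus reached beyond these genes, by 275.7 bases for ND6 and by 2569 for ND3, into sequence that belongs to other genes on the chromosome. Of the 101 member values above 0, 91 were not whole numbers within 0.005, beside 36.1% of the values above 0 over all features. At least part of each of these 91 values had thus been divided among models by estimation, and how large a part was not tested. ND4L, a complex I subunit that follows ND6 in the gene order, was the only member at 0 counts in all 8 libraries. With 3 counts taken as the limit that a count of 0 allows, this put ND4L under 0.135 to 0.252 counts per 1000000 (CPM) per library, a limit that covers counting error only, and whether its reads had been given to the ND6 model was not tested.

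**Figure D1:**
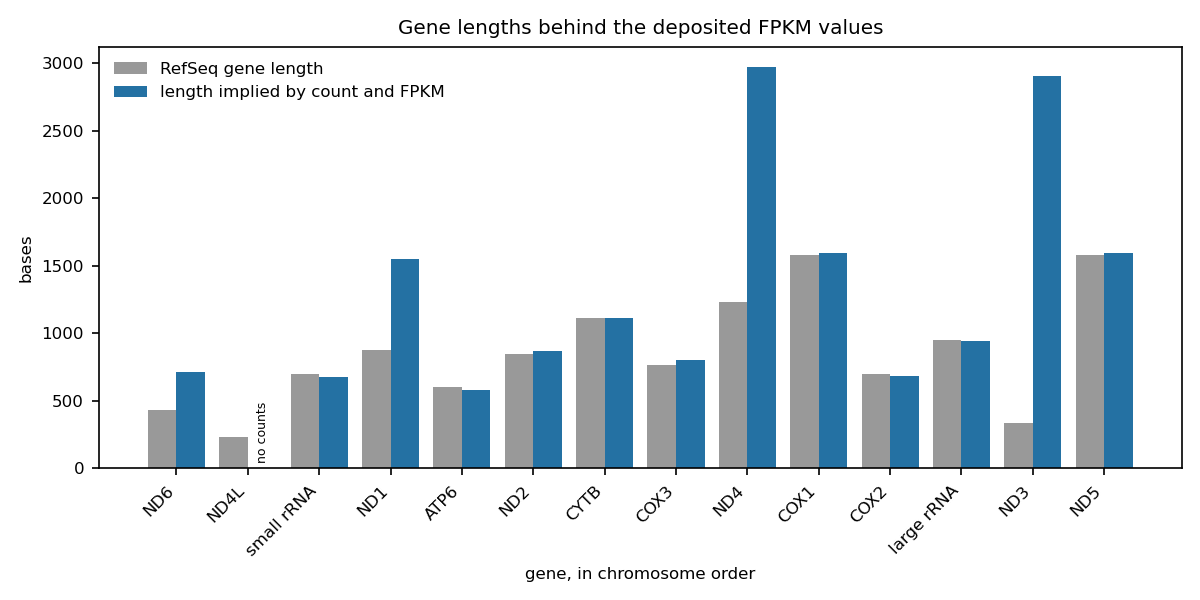
Length in bases of each mitochondrial gene in RefSeq (gray bars) and as implied by the deposited count and FPKM (blue bars), in chromosome order. ND6, ND1, ND4 and ND3 have blue bars more than 1.2 times the gray ones, and ND4L has no counts in any library.

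Per length, the RNAs of complexes III, IV and V were the most abundant, among the genes whose implied length matched the annotation. In the wild type COX3, a core subunit of cytochrome c oxidase, was at 3210 and 3703 FPKM in replicates 1 and 2, and COX1, the catalytic subunit that binds heme and copper, at 2970 and 3418. CYTB, the cytochrome b of complex III, was at 1984 and 2444, and COX2, the subunit that takes electrons from cytochrome c, was at 1957 and 2313. These values overlapped between COX3 and COX1 and between CYTB and COX2. ATP6, part of the proton channel of ATP synthase, followed at 1262 and 1546 FPKM, and did not overlap with CYTB or COX2. The complex I subunit ND5 was at 395 and 497 FPKM, whereas ND2, another complex I subunit, was listed at only 51.1 and 51.2, below the small rRNA at 98.3 and 108. In *egl-9(lf)* mutants the order of the means changed: CYTB came first, at 2296 and 2856 FPKM, followed by COX3 at 2197 and 2399, COX2 at 1888 and 2197, and COX1 at 1800 and 2146. There the values of CYTB and COX3 overlapped. COX1 thus overlapped with COX2 in *egl-9(lf)* mutants and lay above both COX2 values in the wild type.

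Relative to the wild type, *egl-9(lf)* mutants had less RNA from COX1 and COX3, both of complex IV, and of the other tested mitochondrial protein-coding genes none passed the test. These were 2 of 11 tested genes, against 13.3% of all 21372 features tested that were called in either direction and 8.31% that were called lower. With edgeR's own filter on low counts 21.2% of 14311 features were called in either direction, so the count of 2 is near the background. The values that follow are CPM scaled by the trimmed mean of M values (TMM), and with it the median change of all features tested was near 0. COX1 was at 4758 and 5518 CPM in wild-type replicates 1 and 2, at 2739 and 3321 in *egl-9(lf)*, at 4448 and 5289 in the *hif-1* double mutant and at 3396 and 4017 in the *cyp-36A1* double mutant. Both *egl-9(lf)* libraries thus lay below all libraries of the other strains, the *hif-1* double-mutant libraries overlapped with the wild type, and the *cyp-36A1* double-mutant libraries lay between. The log2 fold change of COX1 from the wild type to *egl-9(lf)* was -0.76 (SE 0.12, edgeR adjusted p = 0.0015), to 0.590 times the wild-type level, with -0.80 within replicate 1 and -0.73 within replicate 2. COX3 was at 2600 and 3023 CPM in the wild type, at 1690 and 1877 in *egl-9(lf)*, at 2347 and 2864 in the *hif-1* double mutant and at 2060 and 2300 in the *cyp-36A1* double mutant. The strains took the same order as for COX1, and again only the *hif-1* double mutant overlapped with the wild type. The log2 fold change of COX3 was -0.66 (SE 0.11, edgeR adjusted p = 0.0022), with -0.62 and -0.69 within replicates 1 and 2.

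**Figure D2:**
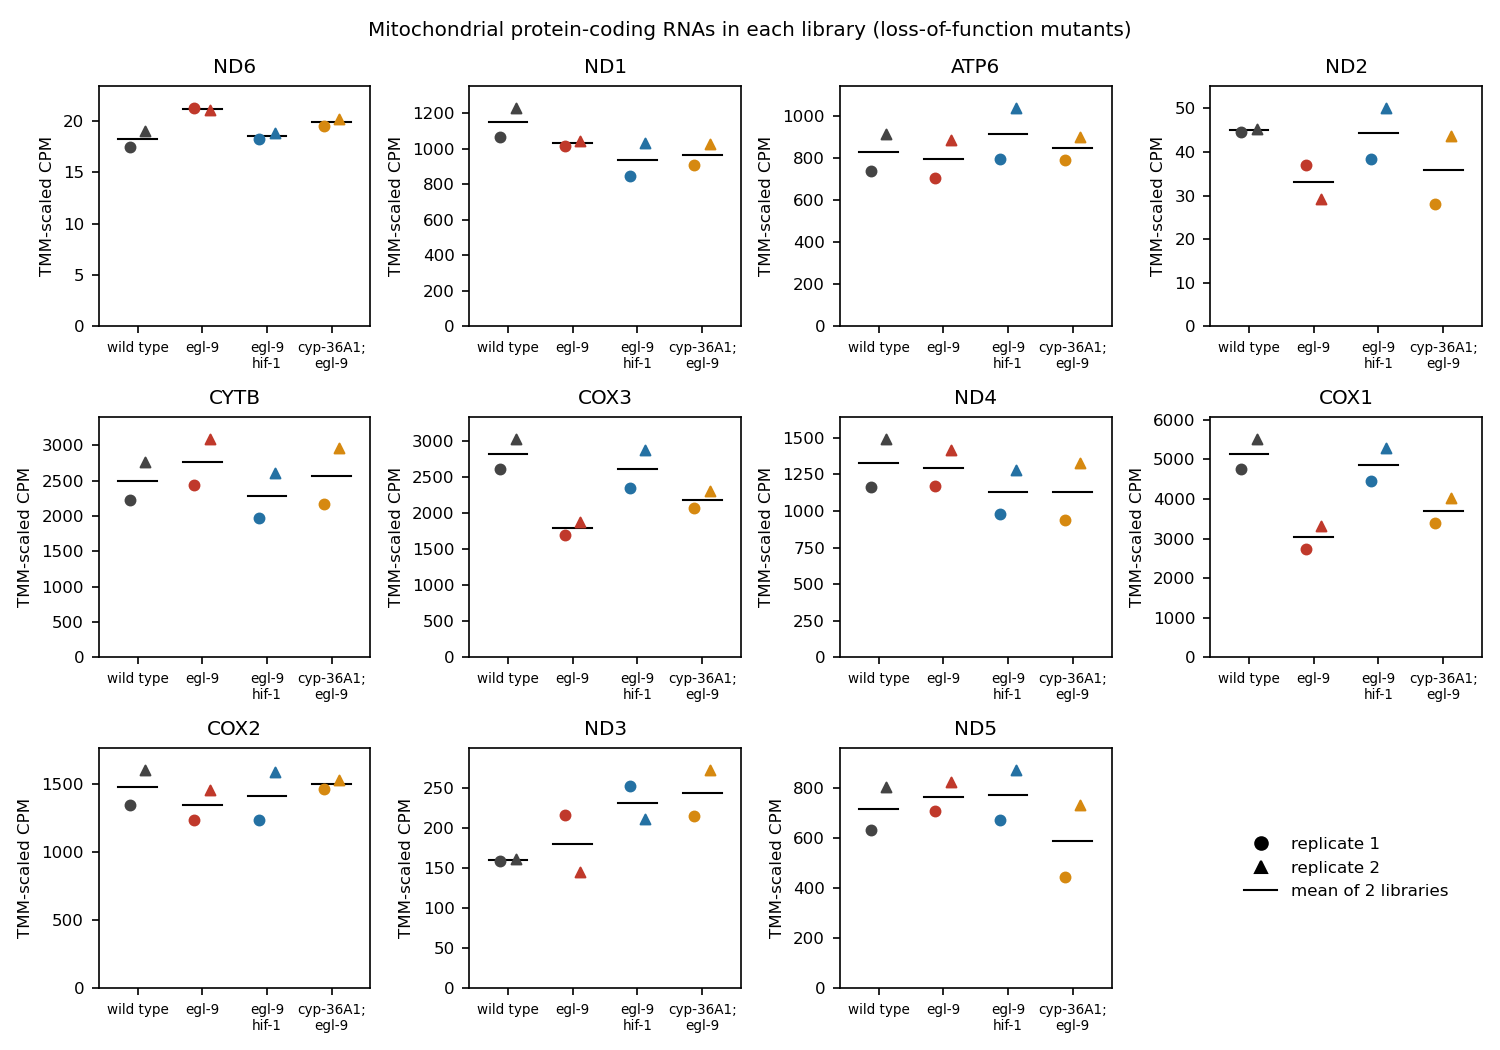
TMM-scaled CPM of the 11 mitochondrial protein-coding genes with counts, by strain; circles are replicate 1, triangles replicate 2, and lines the mean of the 2 libraries. For COX1 and COX3 both *egl-9(lf)* libraries lie below all others, whereas COX2 spans 1234 to 1459 in *egl-9(lf)* and 1346 to 1603 in the wild type.

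COX2, the other mitochondrially encoded subunit of the same complex, was not called. It was at 1346 and 1603 CPM in the wild type and at 1234 and 1459 in *egl-9(lf)*, so the strains overlapped, with a log2 fold change of -0.13 (95% interval -0.41 to 0.15). CYTB was at 2224 and 2761 CPM in the wild type and at 2445 and 3092 in *egl-9(lf)* (log2 fold change 0.15, SE 0.17), and ATP6 at 740 and 913 against 706 and 888 (-0.05, SE 0.15). Neither was called. Within replicates 1 and 2 the log2 differences were 0.14 and 0.16 for CYTB and -0.07 and -0.04 for ATP6, smaller than the differences between replicates of a strain. Among complex I genes, ND5 was at 633 and 802 CPM in the wild type and at 706 and 823 in *egl-9(lf)*, and ND2 at 44.7 and 45.2 against 37.0 and 29.2. ND2 did not overlap and had the lowest value among the genes not called, a log2 fold change of -0.44 (SE 0.21, edgeR adjusted p = 0.21). The complex I genes with long models, ND6, ND1, ND4 and ND3, ranged from -0.16 to 0.22 and were not called. The groups did not overlap for 5 of the 11 genes, beside 54.2% of all features tested, so that count is near the background. The median log2 fold change of the 11 genes was -0.05, beside 0.00 over all features tested and 0.03 over those with a mean CPM of at least 1.

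Ratios of genes within a library do not depend on how libraries are scaled. The ratio of COX1 to COX2 counts was 3.53 and 3.44 in wild-type libraries, 2.22 and 2.28 in *egl-9(lf)*, 3.60 and 3.34 in the *hif-1* double mutant and 2.32 and 2.62 in the *cyp-36A1* double mutant. The ratio of COX3 to COX2 was 1.93 and 1.89 in wild-type libraries, 1.37 and 1.29 in *egl-9(lf)*, 1.90 and 1.81 in the *hif-1* double mutant and 1.41 and 1.50 in the *cyp-36A1* double mutant. Both ratios were lower in the strains that lack *egl-9* alone or with *cyp-36A1* than in the other strains, with no overlap and with replicates that lay closer together than in CPM. The ratio of COX1 to CYTB fell from 2.14 and 2.00 in the wild type to 1.12 and 1.07 in *egl-9(lf)* and was 2.26 and 2.03 in the *hif-1* double mutant, with 1.56 and 1.36 in the *cyp-36A1* double mutant between them. COX1 to COX3, the ratio of the pair that changed, was 1.83 in both wild-type libraries and 1.62 and 1.77 in *egl-9(lf)*. Ratios without overlap were not particular to COX1 and COX3. CYTB to ATP6, neither of them called, was 3.01 and 3.02 in wild-type libraries and 3.46 and 3.48 in *egl-9(lf)*. That ratio was 2.48 and 2.51 in the *hif-1* double mutant and 2.75 and 3.29 in the *cyp-36A1* double mutant. With 2 libraries per strain no exact test between a pair of strains can reach 0.05, and the ratios are given as a description with no test. COX1 made up 32.3 and 31.4% of the mitochondrial protein-coding counts in the wild type but 22.9 and 23.5% in *egl-9(lf)*, so it also weighs on any scaling by that sum. When libraries were scaled to that sum, the COX1 log2 fold change was -0.46 and was not called (edgeR adjusted p = 0.11), and with the replicate block added it was -0.46 and was called (adjusted p = 0.0043).

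**Figure D3:**
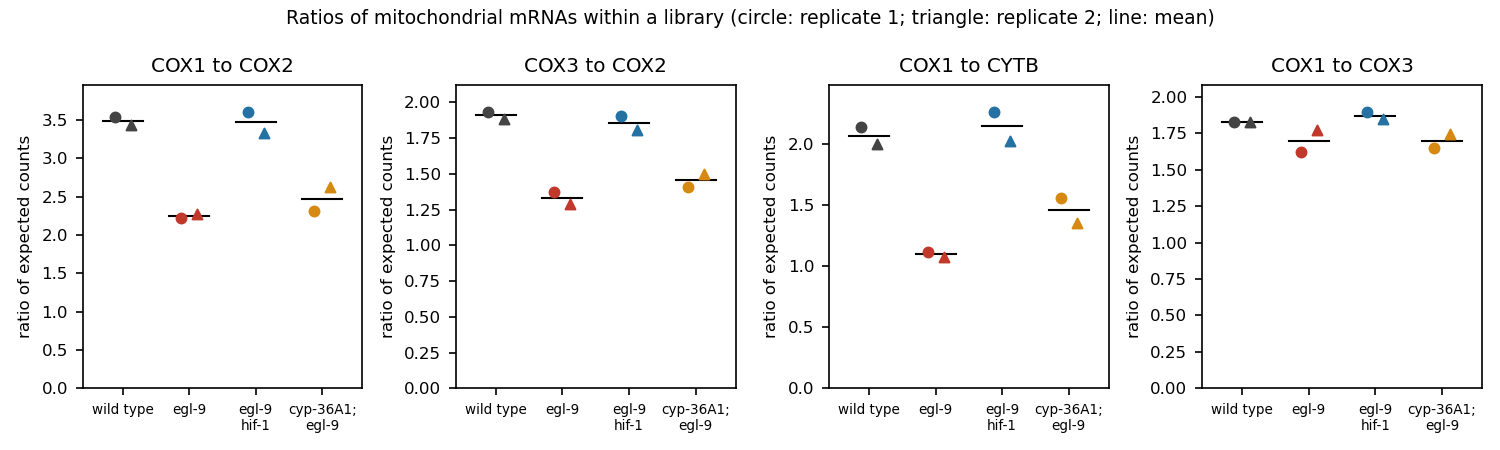
Ratios of expected counts of mitochondrial mRNAs within each library, by strain; circles are replicate 1, triangles replicate 2, and lines the mean. COX1 to COX2 lies at 2.22 to 2.28 in *egl-9(lf)* and at 3.34 to 3.60 in the wild type and the *hif-1* double mutant, while COX1 to COX3 spans 1.62 to 1.90 over all libraries.

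COX3, ND4 and COX1 follow each other on the chromosome, with a single tRNA gene between COX3 and ND4, and the ND4 model was the longest of the 3. ND4, a complex I subunit, was at 1162 and 1493 CPM in the wild type and at 1174 and 1420 in *egl-9(lf)*. The gene that lies between COX3 and COX1 therefore overlapped between these strains (log2 fold change -0.03, 95% interval -0.42 to 0.35) where both its neighbors were lower. Because the reads shared by neighboring models could have been divided differently in different libraries, the counts of neighbors were also added before the fit, an alternative chosen after the data were seen. ND4 and COX1 together had a log2 fold change of -0.58 (SE 0.13, edgeR adjusted p = 0.011), and COX3 and ND4 together of -0.43 (adjusted p = 0.049). COX1 and COX3 had the higher counts of these pairs, so neither sum is independent of the values of COX1 and COX3 alone. ND1 and ATP6 together, next to each other and neither called alone, were at -0.11 (adjusted p = 0.60).

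In the *hif-1* double mutant COX1 and COX3 RNA was higher than in *egl-9(lf)* alone, and no other mitochondrial mRNA was called. The log2 fold change of COX1 from *egl-9(lf)* to the *hif-1* double mutant was 0.68 (SE 0.12, edgeR adjusted p = 0.0024), 1.61-fold, with 0.70 and 0.67 within replicates 1 and 2. That of COX3 was 0.55 (SE 0.11, adjusted p = 0.0058), with 0.47 and 0.61 within replicates. These were 2 of 11 tested genes, against 13.1% of all features tested and 8.86% called higher. With the filter on low counts 20.4% of 14311 features were called, so this count too is near the background. The strains did not overlap for 4 of the 11, beside 48% of all features. The *egl-9(lf)* libraries are shared with the comparison above, so the rises here and the falls there are not independent. The COX3 call was lost without *hif-1* double-mutant replicate 2 (log2 fold change 0.40, edgeR adjusted p = 0.092), whereas the COX1 call remained without any of the 8 libraries, with an adjusted p of at most 0.049. The COX1 call was lost by limma on log2(FPKM + 0.1) (adjusted p = 0.057), by limma with no filter on low values (0.071) and when libraries were scaled to mitochondrial protein-coding counts (0.11). The COX3 call was lost in all limma fits and with that scaling as well. ND4 and COX1 together were higher by 0.47 (adjusted p = 0.032) and COX3 and ND4 together by 0.28 (adjusted p = 0.22). The 9 genes not called ranged from -0.28 for CYTB to 0.42 for ND2, and COX2 was at 0.07 (95% interval -0.21 to 0.35).

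Set directly against the wild type, *hif-1* double mutants had 0 of 11 mitochondrial mRNAs called in the edgeR fit, where 0.215% of all features tested were called. The strains did not overlap for 2 of the 11, beside 25.6% of all features, a count no higher than the background. The log2 fold changes ranged from -0.29 for ND1, a complex I subunit, to 0.54 for ND3, and DESeq2 called 0 of the 11, beside 0.390% of all features. COX1 differed by -0.08 on the log2 scale (95% interval -0.34 to 0.19) and COX3 by -0.11 (95% interval -0.35 to 0.13). ND1 was at 1068 and 1231 CPM in the wild type and at 849 and 1031 in the *hif-1* double mutant. It was at 1018 and 1043 CPM in *egl-9(lf)* and at 907 and 1025 in the *cyp-36A1* double mutant, so ND1 lay below both wild-type values in all 3 mutant strains and was called in none. ND1 and ND3 both had long models, and their values changed with the neighbor added. In the *hif-1* double mutant against the wild type, ND1 with ATP6 was at -0.09 (SE 0.12) and with the small rRNA at -0.26 (SE 0.11). ND3 with ND5 was at 0.20 (SE 0.17) and with the large rRNA at 0.55 (SE 0.16).

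**Figure D4:**
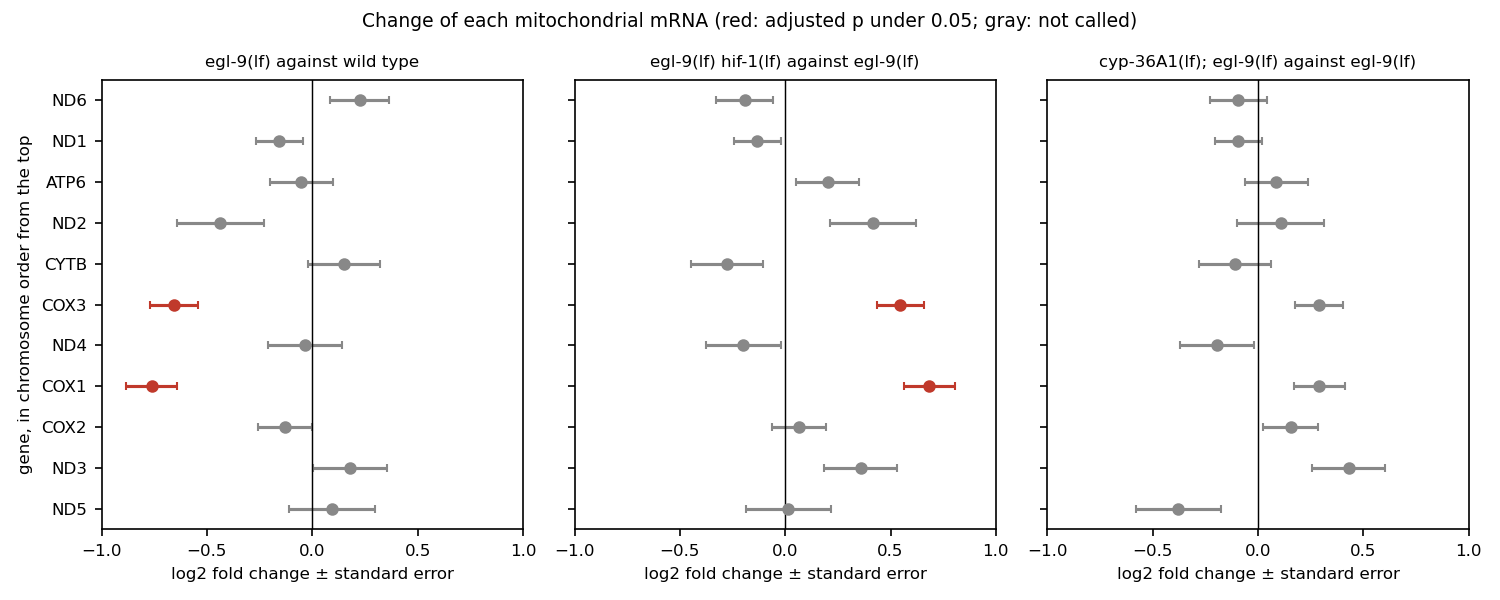
Log2 fold change with its SE for the 11 tested mitochondrial mRNAs in 3 comparisons, in chromosome order from the top; red points had an adjusted p under 0.05. COX3 and COX1 are at -0.66 and -0.76 in *egl-9(lf)* relative to the wild type and at 0.55 and 0.68 in the *hif-1* double mutant against *egl-9(lf)*, with ND4 between them near 0.

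In the *cyp-36A1* double mutant COX1 and COX3 lay between the levels of *egl-9(lf)* and the wild type. Against *egl-9(lf)*, the log2 fold change was 0.29 for COX1 (95% interval 0.03 to 0.56, edgeR adjusted p = 0.56) and 0.29 for COX3 (95% interval 0.05 to 0.53, adjusted p = 0.48), with 0.31 and 0.27 within replicates for COX1 and 0.29 and 0.29 for COX3. Neither passed the test, although the libraries of these strains did not overlap for either gene, nor for 4 of the 11 in all, beside 31.1% of all features. Of the 11 mitochondrial mRNAs, 0 were called in the edgeR fit and 0 by DESeq2, where 1.57 and 2.46% of all features were called. The log2 fold changes ranged from -0.38 for ND5 to 0.43 for ND3. Against the wild type, COX1 was lower by a log2 fold change of -0.47 (SE 0.12, adjusted p = 0.025) and ND3 higher by 0.61 (SE 0.17, adjusted p = 0.041), so 2 of 11 genes were called, against 12.2% of all features (7.47% lower and 4.72% higher). With the filter on low counts 20.1% of 14311 features were called. The strains did not overlap for 6 of the 11, beside 51.6% of all features. COX3, at -0.37 (SE 0.11), was just outside the threshold (adjusted p = 0.053) and inside it with the replicate block (0.024). Neither call against the wild type was firm: COX1 lost it without wild-type replicate 1 (adjusted p = 0.077), wild-type replicate 2 (0.23) or *cyp-36A1* double-mutant replicate 1 (0.11). ND3 lost it without either library of either strain (adjusted p = 0.061 to 0.26).

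The model of ND3 reached well beyond its gene, so sums with its neighbors were fitted as well. ND3, a small complex I subunit, was at 158 and 161 CPM in the wild type, at 215 and 145 in *egl-9(lf)*, at 252 and 210 in the *hif-1* double mutant and at 214 and 272 in the *cyp-36A1* double mutant. Its neighbor ND5, the largest complex I subunit here, was at 445 and 733 CPM in the *cyp-36A1* double mutant and overlapped there with the wild type at 633 and 802. ND3 and ND5 together were at -0.08 in the *cyp-36A1* double mutant against the wild type (edgeR adjusted p = 0.84), and the large rRNA, ND3 and ND5 together at -0.05 (adjusted p = 0.93). ND3 and its other neighbor, the large rRNA, together were at 0.71 (adjusted p = 0.014). ND5 had the higher counts of its pair and the large rRNA was listed at 0 in the wild type, so neither sum is a test of ND3 itself, and how its reads had been divided was not tested.

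Both rRNAs were scarce, and both were called higher in the *cyp-36A1* double mutant than in the wild type, the large rRNA also in *egl-9(lf)*. The small rRNA, the backbone of the small subunit of the mitochondrial ribosome, was at 67.2 and 74.7 CPM in the wild type, at 99.3 and 106 in *egl-9(lf)*, at 85.7 and 74.1 in the *hif-1* double mutant and at 87.7 and 128 in the *cyp-36A1* double mutant. Only the *hif-1* double mutant overlapped with the wild type. The log2 fold change from the wild type was 0.53 in *egl-9(lf)* (SE 0.16, edgeR adjusted p = 0.053, and 0.031 with the replicate block) and 0.61 in the *cyp-36A1* double mutant (SE 0.16, adjusted p = 0.032). The latter call was lost without *cyp-36A1* double-mutant replicate 2 (0.31, adjusted p = 0.21), without wild-type replicate 1 (adjusted p = 0.28) or 2 (0.11), and without *egl-9(lf)* replicate 2 (0.052).

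The large rRNA was listed at 0 counts in both wild-type libraries, at 652 and 515 in *egl-9(lf)*, at 80.5 and 0 in the *hif-1* double mutant and at 382 and 237 in the *cyp-36A1* double mutant. The large rRNA is the core of the large subunit of the mitochondrial ribosome and is needed in every cell with mitochondria, so these values say only where the model was listed at 0. Its listed mean CPM was 441 times a floor of 3 counts over the wild-type group in *egl-9(lf)* (edgeR adjusted p = 0.00028 against the wild type). In the *cyp-36A1* double mutant it was 194 times that floor. The floor covers counting error only, so these values are no bounds on the RNA, and how reads had been divided with the ND3 model was not tested. No such value is given for the *hif-1* double mutant, which was not called and had counts in replicate 1 only. Between mutants, it was lower in the *hif-1* double mutant than in *egl-9(lf)* (edgeR adjusted p = 0.0012, but 0.37 by DESeq2), and the log2 fold change of -1.18 between the *cyp-36A1* double mutant and *egl-9(lf)* was not called (adjusted p = 0.52). Joined with ND3, whose model reached beyond its gene, it gave 158 and 161 CPM in wild-type libraries and 255 and 184 in *egl-9(lf)*, a log2 fold change of 0.46 that did not pass (adjusted p = 0.083). With ND5, which had the higher counts, added as well, the log2 fold change was 0.17 in *egl-9(lf)* (edgeR adjusted p = 0.59). Nuclear rRNA, which tail selection should leave out, took 2.06 and 2.18% of counts in wild-type libraries, 4.06 and 3.82% in *egl-9(lf)*, 3.41 and 2.70% in the *hif-1* double mutant and 3.55 and 6.02% in the *cyp-36A1* double mutant. It was lowest in the wild type and highest in the same library as the small mitochondrial rRNA, and it moved with the small rRNA. Per 1000 nuclear rRNA counts, the small rRNA was at 3.25 and 3.38 in wild-type libraries, at 2.56 and 2.84 in *egl-9(lf)*, at 2.51 and 2.67 in the *hif-1* double mutant and at 2.44 and 2.11 in the *cyp-36A1* double mutant. On that scale the small rRNA was highest in the wild type, with no overlap, so its direction depended on what it was set against. Leaving nuclear rRNA out of the fit changed none of the calls on the 11 mRNAs.

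**Figure D5:**
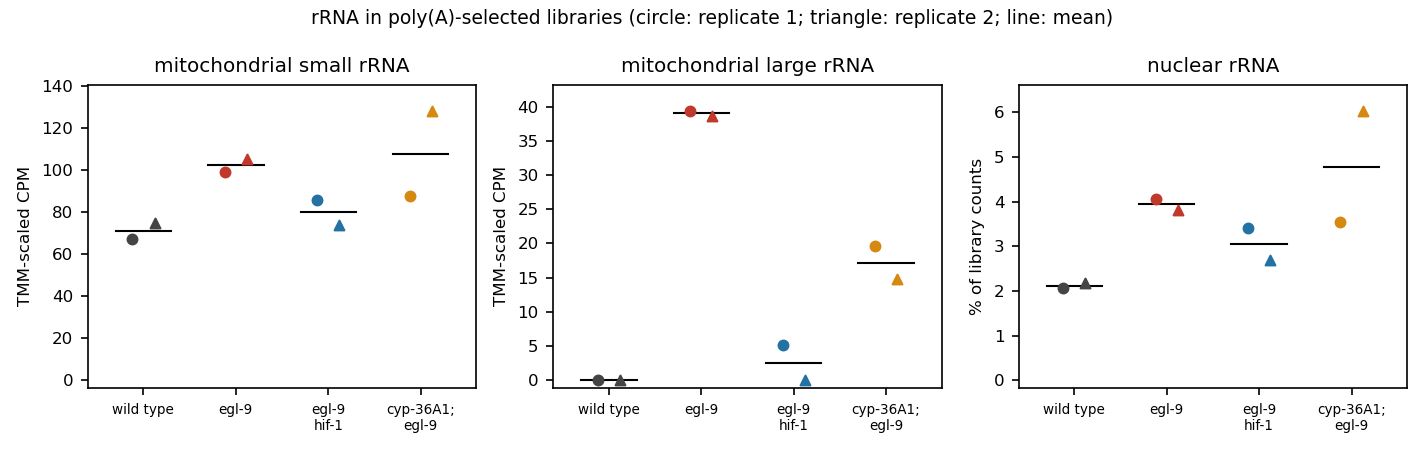
TMM-scaled CPM of the small and large mitochondrial rRNA and the percentage of library counts from nuclear rRNA, by strain; circles are replicate 1, triangles replicate 2, and lines the mean. The large rRNA is at 0 in both wild-type libraries and at 39.3 and 38.7 CPM in *egl-9(lf)*, and nuclear rRNA ranges from 2.06 to 6.02%.

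The nuclear genes that work with the mitochondrial genome were called in small numbers. These are to be read beside the 13.3 and 13.1% of all features called in the same comparisons, or 21.2 and 20.4% with the filter. Of 14 nuclear genes with *cox-* names, which encode the other subunits and assembly factors of complex IV, 0 were called in *egl-9(lf)* relative to the wild type and 0 in the *hif-1* double mutant against *egl-9(lf)*, with medians of -0.10 and 0.07. The subunit genes *cox-4* and *cox-5A* were at -0.12 (SE 0.12) and -0.10 (SE 0.11) in *egl-9(lf)*. Of 8 complex III genes 1 was called, *ucr-2.2*, which encodes a core protein of that complex, lower in *egl-9(lf)* (-0.42, edgeR adjusted p = 0.043) and higher in the *hif-1* double mutant than in *egl-9(lf)* (0.43, adjusted p = 0.034). None of 6 complex I genes with *nuo-* names or 5 complex V genes with *atp-* names was called in either comparison. Of 9 genes for replication, upkeep and transcription of mitochondrial DNA, 0 were called. The DNA polymerase *polg-1* was at 0.47 in *egl-9(lf)* (SE 0.15, adjusted p = 0.065), the packaging protein *hmg-5* at 0.35 (adjusted p = 0.12) and the RNA polymerase *rpom-1* at 0.12 (adjusted p = 0.61). Among 70 mitochondrial ribosomal protein genes, *mrpl-34* was higher (0.45) and *mrpl-44* lower (-0.32) in *egl-9(lf)*, and of 14 mitochondrial aminoacyl-tRNA synthetase genes *nars-2* was higher (0.45, adjusted p = 0.0496).

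In these whole-animal libraries most intestinal and sperm markers moved in the direction of COX1 and COX3, and most oocyte markers moved in the other direction in *egl-9(lf)*. Of 11 intestinal markers, 7 were lower in *egl-9(lf)* than in the wild type and 8 higher in the *hif-1* double mutant than in *egl-9(lf)*. Their summed level was 99617 to 107483 CPM in wild-type libraries, 53907 to 58889 in *egl-9(lf)*, 92158 to 95577 in the *hif-1* double mutant and 78236 to 82864 in the *cyp-36A1* double mutant. By strain means the order of this sum was that of COX1, and the epidermis sum took it too. The epidermis means were 2021 CPM in the wild type, 1559 in *egl-9(lf)*, 1904 in the *hif-1* and 1611 in the *cyp-36A1* double mutant. Its libraries overlapped between some strains. Unlike COX1, the intestinal sum did not overlap between the *hif-1* double mutant and the wild type. In the *cyp-36A1* double mutant 6 intestinal markers were called higher than in *egl-9(lf)*, where COX1 was not called. Single intestinal markers did not all take the order of COX1. Of the intestinal markers outside the yolk protein (*vit*) genes, *elt-2*, the main transcription factor of the intestine, was at -0.20 in *egl-9(lf)* (adjusted p = 0.69), *ges-1*, a gut esterase, at -0.18 (adjusted p = 0.46), *act-5*, an actin of the microvilli, at -0.53 (adjusted p = 0.053), *ifb-2*, an intermediate filament protein, at 0.25 (adjusted p = 0.42) and *vha-6*, a proton pump subunit, at -0.72 (adjusted p = 0.0026). Only *vha-6* of these 5 was called in that comparison. In the *cyp-36A1* double mutant *vha-6* was at -0.74 against the wild type (edgeR adjusted p = 0.0030) and at -0.02 against *egl-9(lf)*, so it did not lie between them. There *ges-1* was at 0.26 against the wild type (adjusted p = 0.23). Of 35 sperm markers (*msp* genes), 29 were lower in *egl-9(lf)* and 30 higher in the *hif-1* double mutant than in *egl-9(lf)*. Their summed level was 3891 to 3960 CPM in wild-type libraries and 1565 to 1712 in *egl-9(lf)*. It was 3554 to 4891 in the *hif-1* double mutant and 1878 to 2242 in the *cyp-36A1* double mutant. Of 10 oocyte markers, 9 were higher in *egl-9(lf)*, with 5855 to 6492 CPM in wild-type libraries and 8172 to 8299 in *egl-9(lf)*. Only 2 of the 10 were lower in the *hif-1* double mutant than in *egl-9(lf)*. None of 6 body-wall muscle, 5 epidermis or 5 neuron markers was called in *egl-9(lf)* relative to the wild type. No defining marker of these tissues other than *msp* genes was at 0 in the wild type or *egl-9(lf)*. The part of tissue make-up in the mitochondrial values was not tested, and in whole animals fewer cells of a type and less RNA per cell cannot be told apart.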

How the data were processed

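Whole-animal RNA selected for poly(A) tails had been sequenced from 1 end on an Illumina HiSeq. The authors aligned reads with Bowtie 1.0.1 and estimated expected counts per gene with RSEM 1.2.15 (versions as in the submitters' processing notes), on the ce10 genome build with an Ensembl annotation. The deposited table held expected counts and FPKM values for each library, neither filtered nor pooled, and 23688 of 45461 features were at 0 in all 8 libraries. Expected counts were rounded, and all features with a count above 0 in at least 1 library (21372) were fitted in 1 model of 4 strain means with edgeR 4.0.16 (TMM scaling, estimateDisp, revised quasi-likelihood estimate, prior degrees of freedom 7.81; R 4.3.3). The default estimate was an alternative. The 95% intervals use the t distribution with the sum of the prior and the 4 residual degrees of freedom. p-values were adjusted by Benjamini-Hochberg over all features, and a gene was called at an adjusted p under 0.05. Deposited FPKM values entered limma 3.58.1 on log2(FPKM + 0.5) as an alternative, and DESeq2 1.42.0 was another. Scripts were tested on simulated data.

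Samples were grouped by their titles, and 5 comparisons were made, all of which share libraries with others. Names, gene order and lengths were matched from RefSeq and Ensembl for WBcel235. Because that assembly differs from ce10, no coordinates are given. All members were named whatever their values, and of other genes only examples from lists (the most abundant or those called) or genes chosen after their values were seen. Members and lists were chosen with earlier results of these data known. Replicates were described as biological, and p-values measure only the spread between 2 libraries per strain. Libraries with the same replicate number deviated together in all 6 pairs of strains (correlations of deviations from strain means 0.11 to 0.31 over 12719 genes with a mean CPM of at least 1), so the numbers were taken as pairing the libraries, and a fit with the replicate block was made beside the main one. The alternatives were 23 settings of scaling, filtering, tool, unit, block and left-out libraries.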

Additional observations from a re-analysis of the deposited data

How the results depend on the processing

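In *egl-9(lf)* against the wild type, 2 mRNAs (COX1 and COX3) were called in the reported fit and without any 1 library. The count was 0 when libraries were scaled to mitochondrial protein-coding counts, which moved the median of all features by 0.27 on the log2 scale. It was 1 by limma with no filter, and 6 with mitochondrial scaling and the replicate block. Of all 21372 features, 2840 were called in the reported fit, 1860 with mitochondrial scaling and 7155 with the block added. By limma with no filter 2174 of 21773 were called. For the *hif-1* double mutant against *egl-9(lf)* the count of 2 became 4 with the default estimate of spread, 0 with mitochondrial scaling (6 with the block), 1 by limma with a pseudocount of 0.5 or 1, 0 with a pseudocount of 0.1 or no filter, and 1 to 3 with a library left out. In that comparison 2802 of 21372 features were called in the reported fit, 3659 with the default estimate, 2214 with mitochondrial scaling and 5300 with the block added. By limma 2550 of 13659 were called with a pseudocount of 0.5, 2645 with 1 and 2338 with 0.1, and 2239 of 21773 with no filter. For the *cyp-36A1* double mutant against *egl-9(lf)* the count of 0 became 2 (ND3 and ND5) with the default estimate and 1 with mitochondrial scaling and the block. There 335 features were called in the reported fit, 840 with the default estimate and 678 with mitochondrial scaling and the block. For the *hif-1* double mutant against the wild type the count of 0 became 1 (ND3) with the default estimate, where 151 features were called, against 46 in the reported fit. For the *cyp-36A1* double mutant against the wild type the count of 2 became 1 with edgeR's own filter, 0 with mitochondrial scaling (1 with the block), 0 in all limma fits and 0 to 3 with a library left out, and it was 3, with COX3 added, with the default estimate, library totals alone, median-ratio scaling, scaling without mitochondrial genes and DESeq2. In that last comparison 2606 of 21372 features were called in the reported fit, 3821 with the default estimate, 1315 with mitochondrial scaling and 5855 with the block added. With edgeR's filter 2877 of 14311 were called, and by DESeq2 2429 of 14742. Library totals, median-ratio scaling and scaling without mitochondrial genes gave 2673 to 2738, and the limma fits 1568 to 2197. The cause of these changes was not tested. The replicate block itself gave 2, 2, 0, 0 and 3 calls in the 5 comparisons in the order above, adding COX3 in the last. With it 3489, 3253, 570, 69 and 3481 of 21372 features were called, in the same order.

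Over the 23 settings COX1 stayed lower in *egl-9(lf)* than in the wild type, from -0.91 to -0.46, and was called in 22; COX3 ranged from -0.76 to -0.35 and was called in 21. For the *hif-1* double mutant against *egl-9(lf)* COX1 was called in 20 and COX3 in 17 settings, and for the *cyp-36A1* double mutant against the wild type COX1 in 13 and COX3 in 8. Against the wild type in the *hif-1* double mutant, COX1, not called, changed sign to 0.010 with mitochondrial scaling and 0.00998 with the block added, and ranged from -0.21 to 0.042 with a library left out, and COX3 from -0.26 to 0.027. With 2 libraries per strain and reads divided between overlapping models, the values of ND6, ND4L, ND1, ND4, ND3 and the large rRNA are the least certain. Reads of the neighbors COX1, ATP6 and ND5 may also have been divided with the long models, which was not tested.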
